A study of Homo sapiens with 8 samples.

Results

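The genes described here are the members of the 4 human HOX clusters, taken as every gene symbol made of HOXA, HOXB, HOXC or HOXD and a number. They came to 39 of the 23368 genes in the count files, with 11 in HOXA, 10 in HOXB, 9 in HOXC and 9 in HOXD. HOX genes encode homeodomain transcription factors that give the cells of an embryo their position along the body axis. Genes at the low-numbered end of a cluster act towards the head and genes at the high-numbered end towards the tail and in the limbs, and genes with the same number in different clusters are paralogs. The adult forebrain is largely without HOX expression, whereas glioblastomas and their cell lines often express HOX genes.

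Gene counts came from RNA-seq of U87MG, an established human glioblastoma line, in 8 libraries. There were 2 libraries each after 4, 24 and 48 h of enzalutamide, a drug that blocks the androgen receptor, and 2 of untreated cells, called control here. The series asked how genes of this line respond to the drug. The labels name no dose and no vehicle, give no culture time for the controls, and do not say whether replicates came from separate cultures, so the spread behind the p-values is that between libraries and may be technical. All libraries come from 1 cell line.

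Total counts were 24620833 to 37162565 per library, of which 1401 to 2567 fell on HOX genes, so most members rest on few reads. Levels are CPM, counts scaled to a common library size, with TMM factors, and a count of 3 in a library, used as the floor, corresponds to 0.0788 to 0.12 CPM. The 48 h libraries stood apart from the other 6, at 88 and 79 on a first principal component that held 65.8% of the variance, against -37.6 to -19.5 for the others. The line was checked against marker genes. In control, 4 of 10 glial and neural progenitor genes reached 1 CPM, namely NES, SLC1A3, SOX9 and OLIG2 at 26.1, 23.8, 11.7 and 2.06 CPM, and GFAP, S100B and SOX2 averaged 0.43, 0.07 and 0.0144 CPM, while AQP4 and OLIG1 had 0 counts in all 8 libraries. All 5 mesenchymal genes were abundant, with VIM at 7990 CPM in control. Some genes listed for other cell types also reached 1 CPM in control. They were CD68 of immune cells at 685 CPM, KRT8 of epithelial cells at 8.02 and MBP of oligodendrocytes at 2.07. The neuron genes SNAP25, MAP2 and SYT1 were at 31.6, 9.66 and 4.89 CPM. No endothelial or erythroid gene reached 1 CPM.

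In untreated cells, each of the 4 clusters held expressed genes, but only 12 of 39 members reached 1 CPM in both control libraries. Among them were HOXA4, then HOXB2, HOXB3 and HOXB4, then HOXC4, HOXC6 and HOXC8, and finally HOXD8, HOXD9, HOXD11 and HOXD13. HOXD8 and HOXB2 had the highest levels per length, at 14 and 8.53 CPM per kb of median coding transcript, followed by HOXD13 at 3.2 and HOXB3 at 3.09 CPM per kb. The other 8 lay between 0.773 and 1.65 CPM per kb, with HOXC6 and HOXC8 highest among them. For HOXD8, the control libraries had 13.2 and 14.7 CPM per kb, and for HOXB2 8.14 and 8.91, so these 2 genes did not overlap each other. HOXD13 had 3.22 and 3.17 CPM per kb and HOXB3 had 3.12 and 3.06, neighbours whose nearest libraries were as close to each other as the libraries of 1 gene.

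The expressed genes lay in different stretches of the clusters. In HOXB they were paralog groups 2 to 4, in HOXC groups 4, 6 and 8, and in HOXD groups 8 to 13, where HOXD10 stayed under 1 CPM in control and HOXD12 had almost no reads. In HOXA they included HOXA4, and HOXA9, HOXA10 and HOXA13 had 0 to 0.013 CPM per kb. HOXB7 and HOXC10 reached 1 CPM in both libraries of a treated group, which brought the genes expressed in any group to 14.

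**Figure D1:**
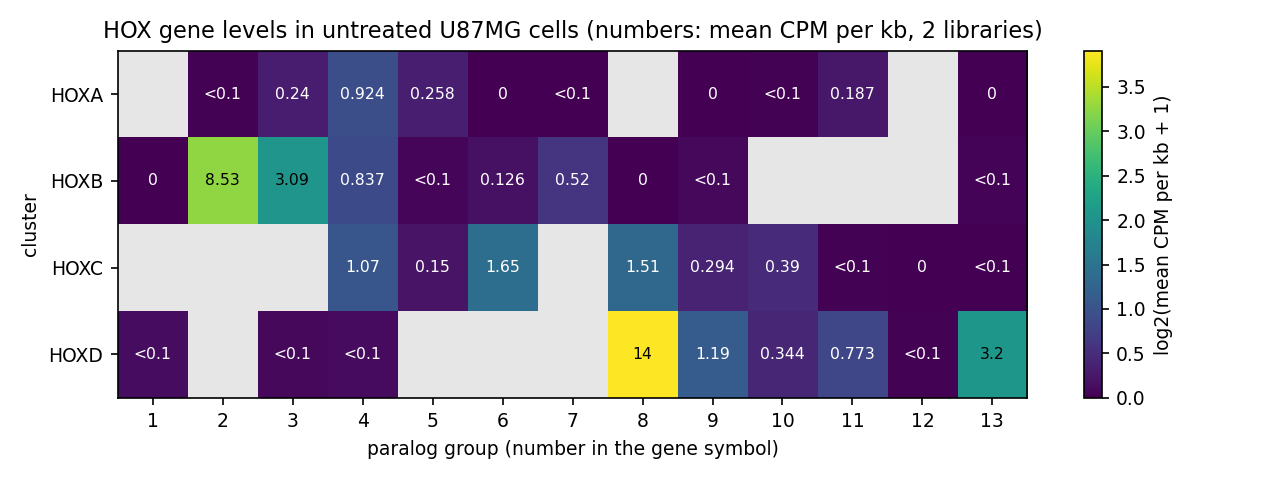
Mean level of each HOX gene in the 2 control libraries, as CPM per kb of median coding transcript (printed numbers) and on a log2(CPM per kb + 1) colour scale; rows are clusters, columns paralog groups, and grey marks positions with no value drawn. HOXD8 (14) and HOXB2 (8.53) stand above all other members.

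A filter on low counts kept 19 of the 39 members among 14448 genes tested, 5 in HOXA, 4 in HOXB, 5 in HOXC and 5 in HOXD. Of these, 14 had at least 10 counts in both libraries of all 4 groups. HOXD10 did so in 3 groups, HOXA5 in 2, HOXA11 in 1 and HOXC9 in 0. HOXC9 reached 10 counts in 1 library, control replicate 2 with 22, so it entered the test through libraries where it was high, and its falls are counted below as descriptions only. The 20 members not tested were HOXA2, HOXA6, HOXA7, HOXA9, HOXA10, HOXA13, HOXB1, HOXB5, HOXB6, HOXB8, HOXB9, HOXB13, HOXC5, HOXC11, HOXC12, HOXC13, HOXD1, HOXD3, HOXD4 and HOXD12. None of them exceeded 11 counts or 0.36 CPM in any library, and HOXA9, HOXA13, HOXB1, HOXB8 and HOXC12 had 0 counts in all 8.

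Of the members called at 4 or 24 h, the promoters of HOXB4, HOXC9 and HOXC10 are not shown, and no shared trait is read. The promoters of 4 others are shown: HOXD13, HOXD11 and HOXA4 were called at 4 h and HOXD8 at 24 h. They are RefSeq sequences on GRCh38.p14, 5′ to 3′ on the gene's strand, from the 250 bases before the annotated start, shortened where an annotated exon of the gene begins earlier. Capitals mark the CCAAT box, the TATA box and the E-box motif CACGTG, on either strand. HOXD13 is on the plus strand at chr2:176092471-176092720, HOXD11 on the plus strand at chr2:176107030-176107279, HOXD8 on the plus strand at chr2:176129455-176129693 and HOXA4 on the minus strand at chr7:27130800-27131007.
HOXD13: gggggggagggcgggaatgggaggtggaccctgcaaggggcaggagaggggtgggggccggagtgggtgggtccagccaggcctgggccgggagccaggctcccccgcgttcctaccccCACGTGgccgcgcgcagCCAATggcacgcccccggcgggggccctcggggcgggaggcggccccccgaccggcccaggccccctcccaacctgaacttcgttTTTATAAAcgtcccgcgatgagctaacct
HOXD11: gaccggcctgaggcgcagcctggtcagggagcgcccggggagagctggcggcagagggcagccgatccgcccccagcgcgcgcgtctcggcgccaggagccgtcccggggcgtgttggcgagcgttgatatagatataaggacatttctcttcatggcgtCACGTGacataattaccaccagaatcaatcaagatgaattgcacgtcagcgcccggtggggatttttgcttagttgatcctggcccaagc
HOXD8: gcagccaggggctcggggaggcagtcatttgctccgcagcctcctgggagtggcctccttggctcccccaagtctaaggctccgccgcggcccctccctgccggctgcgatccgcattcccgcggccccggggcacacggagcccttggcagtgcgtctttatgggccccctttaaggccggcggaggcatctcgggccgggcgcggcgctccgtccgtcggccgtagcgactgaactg
HOXA4: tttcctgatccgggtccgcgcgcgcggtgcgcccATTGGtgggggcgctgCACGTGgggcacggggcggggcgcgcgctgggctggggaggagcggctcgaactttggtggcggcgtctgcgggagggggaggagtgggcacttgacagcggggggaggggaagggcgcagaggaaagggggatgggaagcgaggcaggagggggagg

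In the HOXD13 window, CACGTG began 131 bases, CCAAT 114 bases and TATAAA 27 bases before the start, and TATAAA overlapped its reverse complement TTTATA. The motif with CACGTG, the core letters of the E-box that MYC and related factors bind, began 90 bases before the HOXD11 start and 200 bases before the HOXA4 start. In the HOXA4 window, ATTGG, the CCAAT box on the other strand, began 216 bases before the start. The HOXD8 window held none of these letters. Over the RefSeq promoter windows of the 250 bases before a start, 6.32% of 34943 held CACGTG, 32% CCAAT and 10.8% TATAAA. Of 26 such windows that belonged to HOX members, 8 held CACGTG, 17 CCAAT and 5 TATAAA. These windows covered 20 members, 8 of them tested. The other motifs searched on both strands were GGGCGG (42.5% of all windows, 13 of 26 HOX windows), AGGTCA (12.1%, 0), AGAACA (12.4%, 3), TGACGTCA (1.63%, 0) and TGATNNAT (6.49%, 3). A match describes letters in these windows and is not a measured binding site.

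In the HOXA cluster, HOXA4, a gene of the neck and upper trunk in mouse, had 1.98 and 1.21 CPM in control, 3.80 and 3.32 after 4 h, 3.10 and 2.00 after 24 h and 1.60 and 1.68 after 48 h. Its 4 h libraries were the highest of the 8, and the 48 h libraries lay between the controls. HOXA5, which is needed for lung and airway development in mouse, had 0.482 and 0.374 CPM in control, 0.80 and 0.941 after 4 h, 0.236 and 0.382 after 24 h and 0.102 and 0.138 after 48 h. It was highest at 4 h and lowest at 48 h, where it had 7 counts in all. HOXA3 and HOXA11 stayed between 0.206 and 1.26 CPM and were called in none of the comparisons.

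In the HOXB cluster, HOXB2, a hindbrain gene, had 12.7 and 13.9 CPM in control, 11.8 and 10.7 after 4 h, 13.5 and 12.9 after 24 h and 23.6 and 20.5 after 48 h. Only its 48 h libraries lay above both controls. HOXB4, known for expanding blood stem cells when it is overexpressed, had 2.75 and 3.54 CPM in control, 1.12 and 1.32 after 4 h, 3.39 and 2.35 after 24 h and 1.16 and 0.447 after 48 h. It was low at 4 and 48 h and overlapped control at 24 h. HOXB7, a trunk gene, had 0.737 and 0.69 CPM in control, 1.00 and 0.882 after 4 h, 0.892 and 0.793 after 24 h and 1.77 and 1.17 after 48 h. Its 48 h libraries were the highest of the 8. HOXB3, which lies between HOXB2 and HOXB4, had 5.75 and 5.64 CPM in control, 2.92 and 5.53 after 4 h, 6.14 and 5.37 after 24 h and 5.04 and 5.57 after 48 h. HOXB3 was called in none of the comparisons, and 1 of its 4 h libraries was low while the other was near control. HOXB3 and HOXB4 share exon bases on 1 strand in GENCODE release 29, so reads over these bases cannot be assigned to either with certainty.

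In the HOXC cluster, HOXC6 had 3.94 and 3.77 CPM in control, 2.84 and 3.82 after 4 h, 3.52 and 4.93 after 24 h and 2.18 and 1.82 after 48 h. HOXC8, which like HOXC6 acts at the level of the chest in mouse, had 2.44 and 3.25 CPM in control, 2.60 and 3.32 after 4 h, 2.52 and 3.14 after 24 h and 1.16 and 0.962 after 48 h. Both genes overlapped control at 4 and 24 h and were lower than every other library at 48 h. HOXC10, a gene of the lumbar region and hindlimb in mouse, had 0.822 and 0.69 CPM in control, 0.76 and 0.794 after 4 h, 1.78 and 1.15 after 24 h and 1.46 and 1.89 after 48 h. It was above control in all 4 libraries of the later times. HOXC9 had 0.255 and 0.633 CPM in control, 0.32 and 0.147 after 4 h, 0.105 and 0.0881 after 24 h and 0.034 and 0.0344 after 48 h, which is 1 read in each 48 h library. HOXC4 had 1.96 and 1.47 CPM in control, 1.24 and 0.824 after 4 h, 1.84 and 1.26 after 24 h and 2.14 and 0.928 after 48 h. Its libraries spread widely within groups and it was called in none of the comparisons. HOXC4, HOXC5 and HOXC6 share exon bases on the same strand, so their counts are uncertain with respect to each other.

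In the HOXD cluster, HOXD8 had 19 and 21.2 CPM in control, 17 and 19.5 after 4 h, 14.5 and 13.4 after 24 h and 9.12 and 10.6 after 48 h. HOXD9 had 2.29 and 2.16 CPM in control, 1.52 and 1.88 after 4 h, 1.57 and 1.67 after 24 h and 0.987 and 1.24 after 48 h. For both genes the group means were lower at each later time, with overlap between 4 h and control for HOXD8 and between 4 and 24 h for HOXD9. HOXD13, which shapes the digits and is mutated in human synpolydactyly, had 7.22 and 7.10 CPM in control, 2.24 and 3.59 after 4 h, 6.80 and 8.07 after 24 h and 2.62 and 2.75 after 48 h. It was low at 4 h, overlapped control at 24 h, and was low again at 48 h. HOXD11, which acts in the forearm and kidney of the mouse together with its paralogs, had 1.10 and 1.27 CPM in control, 0.44 and 0.412 after 4 h, 0.656 and 0.881 after 24 h and 0.987 and 0.722 after 48 h. All 6 treated libraries lay below both controls, and the 4 h libraries were lowest. HOXD10, a gene of hindlimb motor neurons in mouse, had 0.68 and 0.69 CPM in control, 1.52 and 0.794 after 4 h, 0.604 and 0.969 after 24 h and 0.102 and 0.103 after 48 h. It was near the floor at 48 h, with 3 counts in each library.

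**Figure D2:**
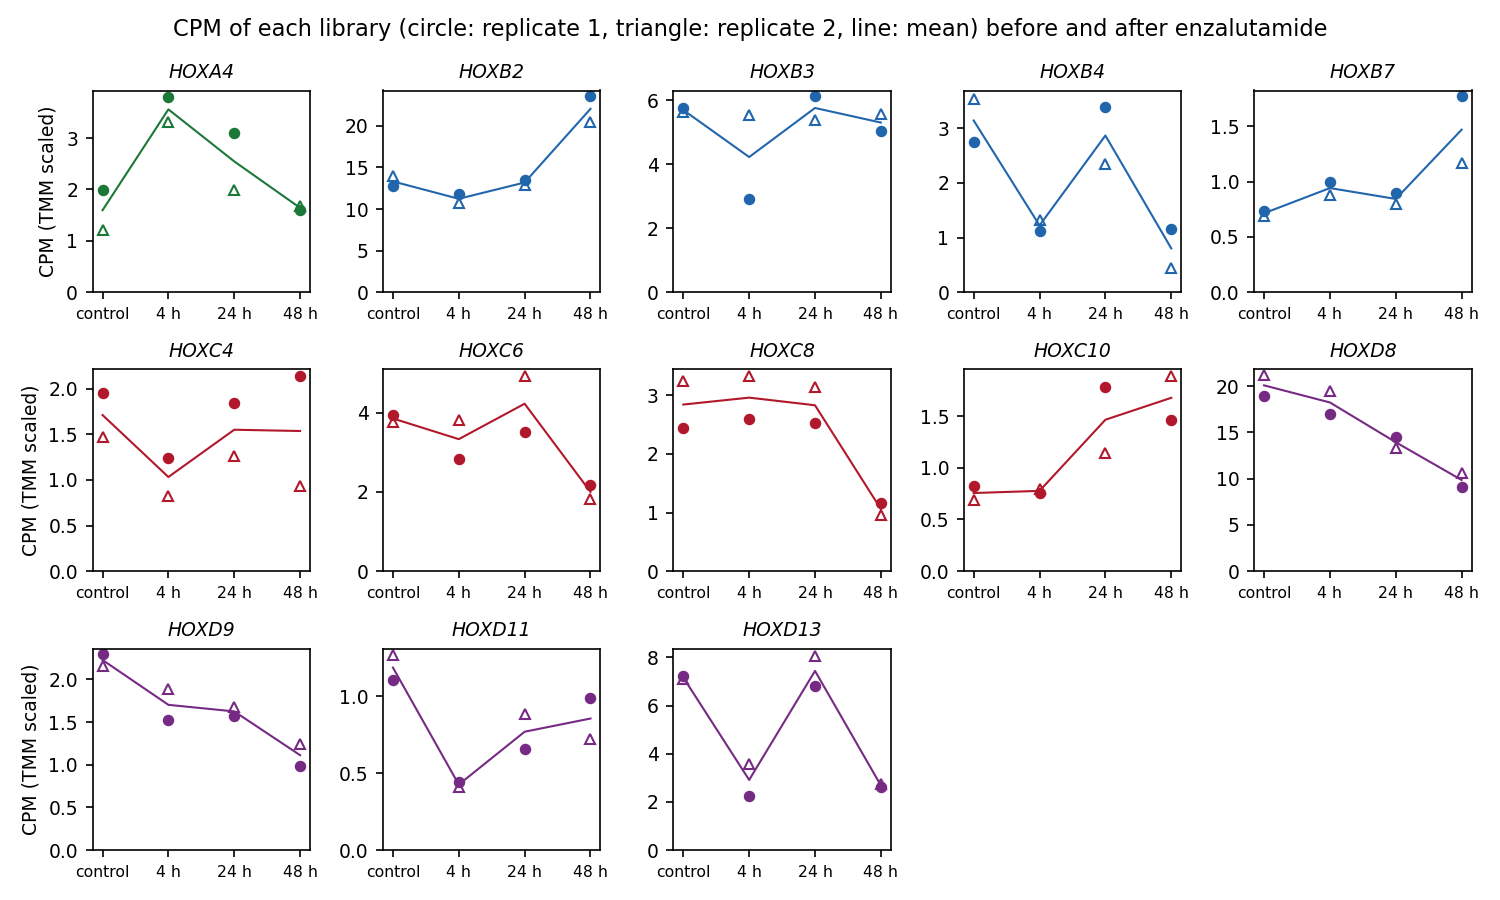
CPM (TMM scaled, linear axis from 0) of 13 of the 14 HOX genes that reached 1 CPM in both libraries of any group, in control and after 4, 24 and 48 h of enzalutamide; the circle is replicate 1, the triangle replicate 2 and the line joins the group means. HOXD13 and HOXB4 are low at 4 and 48 h but not at 24 h, HOXD8 is lower at each later time, and HOXB2 is high at 48 h.

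After 4 h of enzalutamide, HOXA4 rose and HOXB4, HOXD11 and HOXD13 fell. HOXD13 fell to 2.91 ± 0.95 CPM at 4 h, against 7.16 ± 0.08 CPM in control (SD, n = 2 each), a log2 change of -1.27 (SE 0.20, edgeR adjusted p = 0.000924). HOXD11 changed by -1.47 (SE 0.35, adjusted p = 0.00886) and HOXB4 by -1.35 (SE 0.34, adjusted p = 0.0121), and HOXA4 by 1.15 (SE 0.28, adjusted p = 0.0109). The genes called were 4 of 19 members (21.1%), against 28.6% of all genes tested in this comparison, of which 15% rose and 13.6% fell. The members' median log2 change was -0.20, against -0.004 over all genes. HOXA5 was 1.03 higher on the log2 scale and missed the threshold (adjusted p = 0.0567). Between clusters, the calls were 1 of 5 members in HOXA, 1 of 4 in HOXB, 0 of 5 in HOXC and 2 of 5 in HOXD. CPM in bulk RNA cannot tell fewer expressing cells from less RNA per cell.

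The HOXD13 call held with each library left out. The other 3 calls were each lost without some of the libraries compared, while their log2 changes kept their direction. Such a fit leaves 1 library in a group, so a lost call does not show that a single library carried it. HOXA4 was lost without control replicate 2 (log2 change 0.84, adjusted p = 0.102) and without 4 h replicate 1 (1.06, adjusted p = 0.0688). HOXB4 was lost without control replicate 2 (-1.16, adjusted p = 0.0928) and without either 4 h replicate (-1.24 without replicate 1 with adjusted p = 0.0809, and -1.49 without replicate 2 with adjusted p = 0.0603). HOXD11 was lost without the same 3 libraries, at -1.37 (adjusted p = 0.062), -1.51 (0.0514) and -1.42 (0.0748).

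After 24 h, HOXC10 was called higher and HOXD8 and HOXC9 lower, HOXC9 with the limit of its filter given above. HOXD8 fell to 13.9 ± 0.82 CPM at 24 h, against 20.1 ± 1.57 CPM in control (SD, n = 2 each), a log2 change of -0.53 (SE 0.12, edgeR adjusted p = 0.00883). HOXC10 rose to 1.47 ± 0.45 CPM at 24 h, against 0.76 ± 0.09 CPM in control, a log2 change of 0.96 (SE 0.31, adjusted p = 0.0494). HOXC9 had 7 counts in the 24 h libraries and 31 in the control libraries, a depth-scaled ratio of 0.219 (exact 95% interval 0.0815 to 0.507, counting error only; edgeR adjusted p = 0.0337). The called members were 3 of 19 (15.8%), against 22.3% of all genes, of which 12.9% rose and 9.39% fell. HOXD13 and HOXB4 were at 7.44 and 2.87 CPM at 24 h, against 7.16 and 3.14 CPM in control, with log2 changes of 0.05 (95% interval -0.35 to 0.45) and -0.13 (-0.78 to 0.53).

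The HOXC10 call at 24 h held under 6 of 16 other settings and was lost under limma-voom (adjusted p = 0.0597) and DESeq2 (0.123), and without 24 h replicate 1 the log2 change was 0.60 (adjusted p = 0.357). It was lost as well without either control replicate (1.09, adjusted p = 0.142; 0.84, adjusted p = 0.217) and without either 4 h replicate, where its log2 change stayed at 0.96 (adjusted p = 0.0699 and 0.0708). HOXD8 was lost without control replicate 2 (-0.44, adjusted p = 0.0837) and without 24 h replicate 2 (-0.47, adjusted p = 0.0945). HOXC9 was lost without control replicate 2 (-1.36, adjusted p = 0.293) and without either 24 h replicate (-2.28, adjusted p = 0.148, and -2.04, adjusted p = 0.178, against -2.15 with both).

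After 48 h, 10 of the 19 tested members fell and 3 rose. The falls include HOXA5, HOXC9 and HOXD10, with 7, 2 and 6 counts at 48 h, which passed the filter through libraries where they were higher. The shares, the median and the counts of separated libraries below include these 3 genes and were not computed without them. They also include HOXA11, which was not called and had 10 and 6 counts at 48 h. Only in control did both HOXA11 libraries reach 10 counts, and it is among the 14 members below control. Of HOXA, HOXA5 was among those that fell; of HOXB, HOXB4 fell while HOXB2 and HOXB7 rose; of HOXC, HOXC6, HOXC8 and HOXC9 fell while HOXC10 rose; and of HOXD, HOXD8, HOXD9, HOXD10 and HOXD13 fell. The 13 called members were 68.4% of those tested, close to the 66.9% of all genes called in this comparison, and by direction 33.3% of all genes rose and 33.5% fell. The split over all genes depended on the scaling: by library totals alone, 1651 genes were called higher and 2667 lower after 4 h, 1359 higher and 1920 lower after 24 h, and 2742 higher and 6729 lower after 48 h, when 3 members were higher and 11 lower. The members' median log2 change was -0.95, against -0.022 over all genes. Both 48 h libraries lay below both controls for 14 members and above them for 3, against 41.8% and 40.2% of all genes. The 48 h libraries stood apart from the rest over all genes, and the part of that shift in the HOX changes was not tested.

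HOXD8 fell to 9.85 ± 1.04 CPM at 48 h, against 20.1 ± 1.57 CPM in control (SD, n = 2 each), a log2 change of -1.03 (SE 0.12, edgeR adjusted p = 2.06e-05). HOXD13 fell to 2.69 ± 0.09 CPM at 48 h, against 7.16 ± 0.08 CPM in control, a log2 change of -1.41 (SE 0.21, adjusted p = 9.79e-05). For both genes both 48 h libraries lay below both controls. HOXB4 changed by -1.96 (SE 0.36, adjusted p = 0.000552), HOXC8 by -1.42 (SE 0.27, adjusted p = 0.000638), HOXD9 by -0.999 (SE 0.25, adjusted p = 0.00387) and HOXC6 by -0.95 (SE 0.24, adjusted p = 0.00414). HOXB4 depended on which 48 h library was kept, at -2.80 without replicate 1 and -1.43 without replicate 2, and was called in both cases.

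The falls of HOXC9, HOXD10 and HOXA5 rest on few reads at 48 h, and these genes passed the filter through other groups, so their falls are descriptions and no support for the count. HOXC9 had 2 counts in the 48 h libraries and 31 in control, a depth-scaled ratio of 0.0773 (exact 95% interval 0.00896 to 0.304; edgeR adjusted p = 0.00289), and without control replicate 2 its log2 change was -2.76, against -3.55 with it. HOXD10 had 6 counts at 48 h and 48 in control, a ratio of 0.15 (0.0524 to 0.35; adjusted p = 0.00198). HOXA5 had 7 counts at 48 h and 30 in control, a ratio of 0.28 (0.104 to 0.649; adjusted p = 0.0108). The HOXA5 call was lost without control replicate 1 (adjusted p = 0.0643) and without 48 h replicate 1 (adjusted p = 0.0721).

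HOXB2 rose to 22.1 ± 2.21 CPM at 48 h, against 13.3 ± 0.85 CPM in control (SD, n = 2 each), a log2 change of 0.73 (SE 0.11, edgeR adjusted p = 0.000141). HOXC10 rose by 1.14 (SE 0.32, adjusted p = 0.0075) and HOXB7 by 1.04 (SE 0.31, adjusted p = 0.0111). The HOXC10 call was lost without control replicate 2 (adjusted p = 0.0541). The HOXB7 call was lost without control replicate 2 (adjusted p = 0.0627) and without 48 h replicate 1 (0.71, adjusted p = 0.13). The tested members not called at 48 h numbered 6, HOXA3, HOXA4, HOXA11, HOXB3, HOXC4 and HOXD11, with log2 changes of -0.66 to 0.04.

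**Figure D3:**
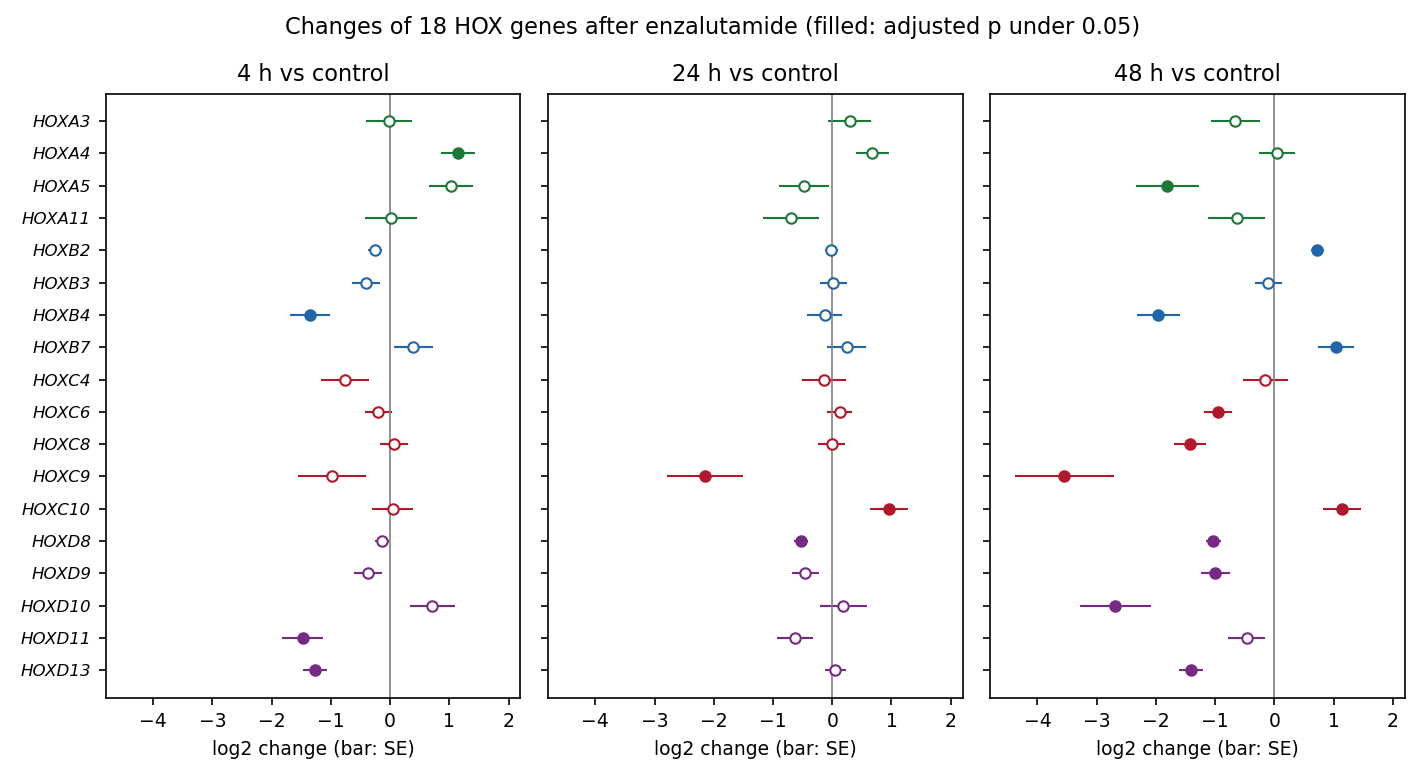
Log2 change against control of 18 of the 19 tested HOX genes at 4, 24 and 48 h (points, edgeR estimate; bars, SE; filled points, adjusted p under 0.05), with clusters HOXA to HOXD from top to bottom. Filled points number 4, 3 and 12, and at 48 h HOXB2, HOXB7 and HOXC10 are the filled points to the right of 0.

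No member was called at all 3 times against control, 5 were called at 2 times, 10 at 1 time and 4 at none. The 3 comparisons share the control libraries. HOXB4 and HOXD13 had lower values at 4 and 48 h than at 24 h, and the direct comparisons of the times bear on this. At 24 h against 4 h, HOXD13 rose to 7.44 ± 0.90 CPM at 24 h, against 2.91 ± 0.95 CPM at 4 h (log2 change 1.32, SE 0.20, edgeR adjusted p = 0.000383). HOXB4 rose by 1.22 (adjusted p = 0.0138) and HOXC10 by 0.92 (adjusted p = 0.0406), and HOXA5 and HOXD8 fell by 1.51 (adjusted p = 0.00906) and 0.39 (adjusted p = 0.0215). These 5 of 19 members were 26.3%, against 41.5% of all genes (21.2% higher and 20.3% lower). HOXA5 had 9 and 13 counts in the 24 h libraries and passed the filter through control and 4 h, so its fall is a description only. The HOXD13 call held with every library left out, and the calls of HOXB4, HOXA5, HOXC10 and HOXD8 were each lost without at least 1 library. Without 24 h replicate 1 the values were 0.93 for HOXB4 (adjusted p = 0.12), -1.19 for HOXA5 (0.0971), 0.56 for HOXC10 (0.31) and -0.45 for HOXD8 (0.0592). Without a 4 h replicate the adjusted p was 0.0588 to 0.0803 for HOXB4, 0.0752 for HOXA5, 0.136 to 0.141 for HOXC10 and 0.188 for HOXD8. HOXD8 was lost also without 24 h replicate 2 (-0.33, adjusted p = 0.148), and HOXC10 without control replicate 1 or 2 (0.056 and 0.0556). DESeq2 called neither HOXC10 (adjusted p = 0.106) nor HOXA5 (0.0651) here, and limma-voom did not call HOXC10 (0.0556).

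At 48 h against 24 h, 7 members fell and 2 rose, 47.4% of those tested, against 66.8% of all genes (31.5% higher and 35.3% lower). Scaled by library totals alone, 11 members fell and 1 rose. HOXD13 (-1.47, SE 0.21, edgeR adjusted p = 6.91e-05) and HOXB4 (-1.84, SE 0.36, adjusted p = 0.000903) fell, and HOXC6, HOXC8, HOXD8 and HOXD10 were also among the falls. HOXD10 had 6 counts at 48 h and 56 at 24 h. It passed the filter through groups where it was higher, so its fall is a description only. HOXB2 rose by 0.74 (SE 0.11, adjusted p = 0.000117) and HOXB7 by 0.80 (SE 0.30, adjusted p = 0.0346). The HOXB7 rise was lost under 8 of 15 other settings, and without 48 h replicate 1 it was 0.47 (adjusted p = 0.309). It was lost also without either control replicate (adjusted p = 0.0518 and 0.0513) and without 24 h replicate 1 or 2 (0.0857 and 0.141). HOXB4 was at -2.68 without 48 h replicate 1 and -1.31 without replicate 2, called in both cases.

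Summed over all members of a cluster, the HOXD genes had 30.8 and 32.8 CPM in control, 23.6 and 26.5 after 4 h, 24.5 and 25.5 after 24 h and 13.9 and 15.8 after 48 h. The HOXB genes had 22.6 and 24.3 CPM in control, 17.1 and 18.8 after 4 h, 24.3 and 21.8 after 24 h and 31.7 and 27.7 after 48 h. HOXD was below control in all 6 treated libraries and lowest at 48 h, whereas HOXB was lowest at 4 h and above control at 48 h. The HOXA sum averaged 2.91 ± 0.12 CPM at 48 h, against 6.32 ± 0.29 CPM in control, and the HOXC sum 6.49 ± 1.07 CPM, against 9.94 ± 0.43 CPM (SD, n = 2 each). Within HOXA, HOXA3, HOXA4 and HOXA11 were not called at 48 h, so the lower sum does not stand for a fall of each member. At 48 h the ratios to control were 0.46 for HOXA, 1.27 for HOXB, 0.654 for HOXC and 0.467 for HOXD, and 0.755 for all members together. Scaled by library totals alone, the HOXB ratio was 1.05. HOXB genes thus took 55.1% of all HOX reads on the CPM scale at 48 h, against 32.8% in control, and HOXD genes 27.5%, against 44.5%. These sums weigh genes by their reads and are led by HOXB2 and HOXD8, which made up 56.9% of the HOXB sum and 63.2% of the HOXD sum in control. They were not tested.

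**Figure D4:**
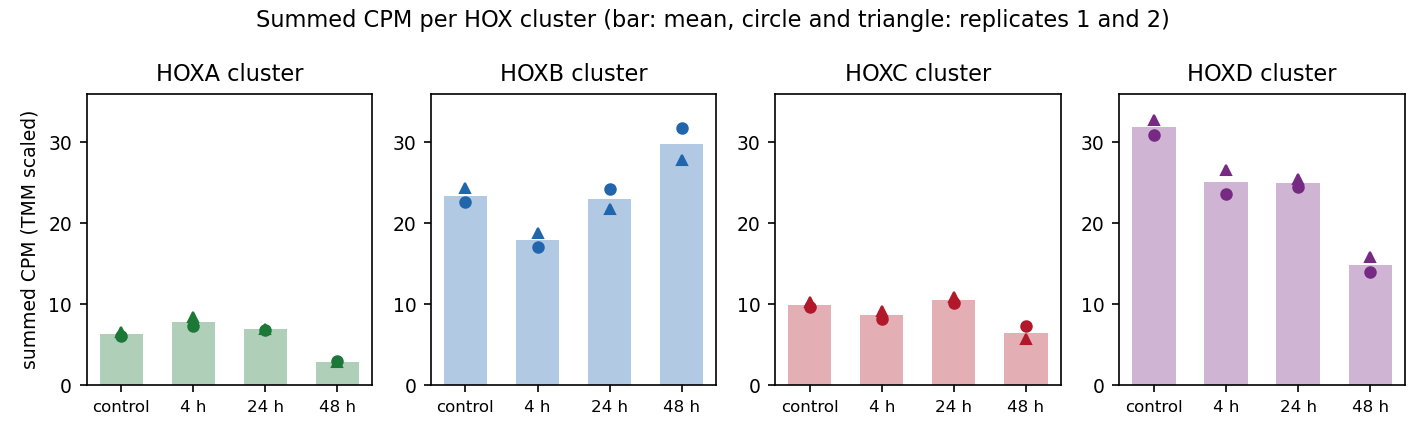
Summed CPM (TMM scaled, axis from 0) of all members of each HOX cluster in control and after 4, 24 and 48 h of enzalutamide; bars are means and the circle and triangle are replicates 1 and 2. The HOXB bar is highest at 48 h (29.7 CPM), while the HOXA, HOXC and HOXD bars are lowest there (2.91, 6.49 and 14.9 CPM).

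Paralogs did not share a direction in each case: HOXA4 rose at 4 h and HOXB4 fell, and at 48 h HOXB4 fell while HOXA4 was at 1.60 and 1.68 CPM, against 1.98 and 1.21 CPM in control.

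The noncoding genes of the clusters had 14 symbols in the files, of which 5 were tested. HOTAIRM1, a noncoding gene of the HOXA cluster, had 6.06 and 8.37 CPM in control, 7.64 and 6.76 after 4 h, 5.22 and 4.55 after 24 h and 10.9 and 8.70 after 48 h. It was called higher at 48 h, by 0.44 on the log2 scale (edgeR adjusted p = 0.0465, just under the threshold). The higher control library, at 8.37 CPM, lay close to the lower 48 h library, at 8.70 CPM. How this call holds under other scalings or with libraries left out was not examined. HOXD-AS1 had 11.1 and 13.7 CPM in control, 11.6 and 12.3 after 4 h, 12.3 and 12.3 after 24 h and 10.5 and 10.1 after 48 h, and was called at none of the times against control. HOXA-AS5 had 0.00 and 0.0344 CPM at 48 h, under the floor, against 0.595 and 0.23 CPM in control (edgeR adjusted p = 0.00318). It had at most 21 counts in any library and passed the filter through libraries where it was higher, so its fall is a description only. HOTAIR stayed between 0.08 and 0.42 CPM, and the 6 microRNA gene symbols of the clusters had at most 1 count. The use of strand in counting is not given in the sources used here. In GENCODE release 29, 7 of the 19 tested members, HOXA4 and HOXB2 among them, share exon bases with a gene on the opposite strand, so their reads cannot be told apart from those of that gene. HOXA5, HOXB7, HOXC8 and all 5 tested HOXD members share none with any gene.

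HOX proteins bind DNA together with PBX, MEIS and PKNOX proteins, known as TALE cofactors, of which 7 of 9 were tested. Rises and falls numbered 1 and 2 after 4 h, 1 and 0 after 24 h, and 2 and 3 after 48 h. Over all genes tested, 28.6% were called after 4 h, 22.3% after 24 h and 66.9% after 48 h, and nothing particular to this list or to those that follow is read from their counts. MEIS2 had 20.5 and 18.2 CPM at 4 h, against 37.8 and 37.4 CPM in control (log2 change -0.96, adjusted p = 0.000234), 37.4 and 36.4 CPM at 24 h, and 21.6 and 29.3 CPM at 48 h (-0.56, adjusted p = 0.00175). It was thus low at 4 and 48 h and close to control at 24 h. At 48 h PBX3 had 88.4 and 96.9 CPM, against 46.0 and 46.7 CPM in control (1.00, adjusted p = 3.28e-07), and MEIS1 had 0.783 and 0.962 CPM, against 2.29 and 2.9 CPM (-1.57, adjusted p = 0.000606).

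Trithorax proteins and H3K27 demethylases keep HOX genes active, and Polycomb complexes keep them silent. Of 17 tested genes of the first kind, 5 rose and 5 fell at 48 h, when 66.9% of all genes were called. DOT1L, an H3K79 methyltransferase, had 15.3 and 21.3 CPM at 48 h, against 43.5 and 45.0 CPM in control (-1.27, adjusted p = 3.61e-06). Rises and falls among the 17 numbered 4 and 3 after 4 h, and 5 and 0 after 24 h. Of 12 genes of Polycomb repressive complex 2, 3 rose and 3 fell after 4 h, 2 rose and 0 fell after 24 h, and 5 rose and 4 fell after 48 h, beside all-gene shares called of 28.6%, 22.3% and 66.9%. EZH2, a methyltransferase of this complex, had 26.6 and 24.5 CPM in control, 17.7 and 19.1 after 4 h, 57.2 and 58.9 after 24 h and 42.6 and 39.0 after 48 h. Its log2 changes were -0.47, 1.18 and 0.68 (edgeR adjusted p = 0.00239, 6.26e-06 and 2.97e-05). It was below control at 4 h and above it at 24 and 48 h. Of 20 genes of Polycomb repressive complex 1, 9 rose and 4 fell at 48 h (66.9% of all genes called), with RYBP at 216 and 209 CPM, against 37.6 and 40.8 CPM in control (2.44, adjusted p = 6.93e-10). The counts were 3 rises and 2 falls after 4 h, and 2 rises and 1 fall after 24 h.

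Retinoic acid induces HOX genes at the low-numbered ends of the clusters, and 12 of 19 genes of its synthesis, breakdown and receptors were tested. There were 7 rises and 1 fall after 4 h, 6 rises and 2 falls after 24 h, and 2 rises and 6 falls after 48 h, beside all-gene shares called of 28.6%, 22.3% and 66.9%. CYP26B1, which breaks down retinoic acid, had 38.1 and 37.1 CPM in control, 97.0 and 98.2 after 4 h, 78.7 and 78.1 after 24 h and 6.36 and 9.07 after 48 h, with log2 changes of 1.38, 1.06 and -2.29 (adjusted p = 6.47e-06, 4.79e-05 and 4.5e-08). It was high at 4 and 24 h and low at 48 h. ALDH1A3, which makes retinoic acid, had 3070 and 2860 CPM in control, 3970 and 4080 after 4 h, 2120 and 1990 after 24 h and 1170 and 1130 after 48 h. Its log2 changes were 0.44, -0.53 and -1.37 (edgeR adjusted p = 0.000249, 0.000108 and 1.06e-08), so it was above control at 4 h and below it later. RARB, a retinoic acid receptor, had 3.40 and 3.61 CPM at 48 h, against 19.3 and 21.7 CPM in control (-2.55, adjusted p = 8.51e-08). Both 48 h libraries lay below both controls for these 3 genes. The rises at 48 h were STRA6, a retinol transporter, and DHRS3, which reduces retinal. STRA6 had 7.62 and 5.67 CPM at 48 h, against 1.67 and 1.52 CPM in control (2.05, adjusted p = 3.01e-06), and its change at 24 h was 3.53 (adjusted p = 1.19e-06). DHRS3, named after its values were seen, had 98.4 and 84.9 CPM at 48 h, against 64.9 and 53.2 CPM in control (0.64, adjusted p = 0.000146).

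Genes that flank the clusters had 7 of 12 tested. There was 1 rise and 2 falls after 4 h, 3 rises and 1 fall after 24 h, and 2 rises and 3 falls after 48 h, beside all-gene shares called of 28.6%, 22.3% and 66.9%. CBX5, a heterochromatin protein gene that lies beside HOXC, had 63.5 and 70.5 CPM at 48 h, against 163 and 177 CPM in control (-1.34, adjusted p = 4.56e-08). CTCF and the cohesin genes, which shape chromatin loops, gave 0 rises and 3 falls at 4 h, 4 rises and 0 falls at 24 h, and 5 rises and 1 fall at 48 h among 7 genes, beside the same all-gene shares. Of the CDX, FGF, WNT and GDF11 inputs, 2 of 7 were tested, and FGF2 rose at 4 h (0.65, adjusted p = 8.87e-05) and at 48 h (0.60, adjusted p = 2.41e-05). GDF11, the other gene tested, rose at 24 h (0.47, adjusted p = 0.015) and fell at 48 h (-0.46, adjusted p = 0.00568).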

How the data were processed

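Per the labels' protocols, total RNA was column-purified with DNase treatment and made into libraries with an Illumina kit. The submitters' processing notes name Bowtie and the builds hg19 and GRCh37. For the counting program, annotation and use of strand, the sources used here give nothing. As deposited by the authors, values are raw whole-number counts for each gene symbol. Groups came from the labels. In R 4.3.3, edgeR 4.0.16 kept 14448 genes (filterByExpr), scaled the 8 libraries (TMM factors 0.870 to 1.08) and fitted them in 1 quasi-likelihood model with 4 residual degrees of freedom. Calls were made at a Benjamini-Hochberg adjusted p under 0.05 over all genes tested. Standard errors were obtained from the log2 change and its F statistic, and 95% intervals of log2 changes use the test's degrees of freedom. Other settings were DESeq2 1.42.0, limma-voom 3.58.1, other scalings and filters, a replicate block, and each library left out. Transcript lengths and exon overlaps came from GENCODE release 29 on GRCh38, matched by symbol for all 39 members, so no gene coordinates in the authors' build are given. Named genes were the members expressed or called and, per list, called genes of smallest p. The members and lists were chosen with earlier results of these data known. Some genes are counted but not reported by name here.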

Additional observations from a re-analysis of the deposited data

Results flagged for a closer look

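The changes against control differed between times for the members below, by the direct edgeR test of 1 time against the next (adjusted p under 0.05). Between 4 and 24 h, the log2 difference (24 h over 4 h) was 1.32 for HOXD13, 1.22 for HOXB4, 0.92 for HOXC10, -1.51 for HOXA5 and -0.39 for HOXD8. Between 24 and 48 h, the difference (48 h over 24 h) was -2.88 for HOXD10, -1.84 for HOXB4, -1.47 for HOXD13, -1.41 for HOXC8, -1.07 for HOXC6, -0.50 for HOXD8, 0.74 for HOXB2 and 0.80 for HOXB7. HOXD10 had 3 counts in each 48 h library, and HOXA5 had 9 and 13 counts in the 24 h libraries. Both genes passed the filter through groups where they were higher, so these falls are descriptions only. The 2 comparisons share the 24 h libraries, so opposite signs for HOXB4 and HOXD13 over the 2 intervals are not independent of each other. Without 24 h replicate 1, the HOXB4 difference between 4 and 24 h was 0.93 (adjusted p = 0.12).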

How the results depend on the processing

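Scaled by library totals alone, the median of all genes moved to -0.30 at 48 h against control, and the summed ratios were 0.379, 1.05, 0.538 and 0.386 for HOXA to HOXD; the members that fell at 48 h against 24 h came to 11 and those that rose to 1. No call of a HOX member changed direction under any setting. At least 5 CPM in 2 libraries left 4 members, of which 0 rose and 1 fell at 4 h, 0 and 1 at 24 h, 1 and 2 at 48 h, 1 and 1 at 24 h against 4 h, and 1 and 2 at 48 h against 24 h; only 4 members were expressed in control at 5 CPM. The 1 rise at 24 h was 0 with DESeq2, limma-voom, DESeq2 size factors, library totals and the replicate block. DESeq2 gave 1 fall at 24 h, with no adjusted p for HOXC9, 1 fall at 24 h against 4 h and 1 rise at 48 h against 24 h. Fitting only the groups compared gave 2 rises at 4 h, 1 fall at 24 h and 1 rise at 48 h against 24 h, and leaving out the 48 h libraries, chosen after seeing the data, gave 2 rises at 4 h. With each library left out, rises and falls ranged 0 to 1 and 1 to 3 at 4 h, 0 to 1 and 0 to 2 at 24 h, 1 to 3 and 9 to 11 at 48 h, 1 to 3 and 0 to 2 at 24 h against 4 h, and 1 to 2 and 7 to 8 at 48 h against 24 h. Deviations of libraries with equal replicate numbers correlated weakly between groups (-0.00488 to 0.135), which cannot tell whether these libraries were paired. The replicate block changed no other count of HOX calls by over 1.5 times. Depth limits the 20 untested members and HOXC9, HOXD10, HOXA5 and HOXA11.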
